A study of Rattus norvegicus with 8 samples.

Results

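Transcripts of 10 myeloid Fc receptor and ITAM signaling genes were examined in rat sciatic nerve tissue by bulk RNA-seq. They were Fcer1g, Tyrobp, Nfam1, Fcgr1a, Fcgr2a, Fcgr2b, Lyn, Syk, Cd300a and Cd300lf, and all 10 were found by gene symbol among the 32545 genes listed. The genes were chosen by name with earlier results of these libraries known. Lyn and Nfam1 were selected on the difference between NC PNAs and Unop nerves, so for the 10 genes that comparison is a description with no p and no count of calls. All 10 passed the filter on low values (10 or more normalized counts in 2 or more libraries), as did 16478 genes in all.

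The tissue came from female outbred Sprague Dawley rats aged 3 to 6 months. Peripheral nerve allografts (PNAs) were segments of sciatic nerve from a donor rat sewn into a gap in the sciatic nerve of a host. Donors and hosts were not matched for tissue type and the hosts received no immune suppression. Of the PNAs, 3 were PEG-fused (named PEG PNAs here), which means that the cut ends were bathed in hypotonic Ca-free saline, treated with methylene blue, sutured, and then treated with polyethylene glycol to fuse apposed axons. The other 3 PNAs were negative controls (NC), which had the same saline, methylene blue and sutures but no polyethylene glycol. Both kinds of PNA were rinsed last in isotonic saline with Ca, which seals remaining holes in axons. All 6 PNAs were taken at 14 days postoperatively (PO), and 2 nerves came from unoperated animals (Unop). A PNA at that time could hold cells of both the donor and the host, and reads were not assigned to either.

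An ITAM is a short tyrosine motif in the cytoplasmic tail of a receptor or of its adaptor. When the receptor is crosslinked, a Src-family kinase such as Lyn phosphorylates the motif, and the kinase Syk docks on it and passes the signal on. Activating Fc receptors, which bind the constant part of antibodies, signal in this way through the adaptor Fcer1g. Receptors that carry an ITIM, such as Fcgr2b and Cd300a, recruit phosphatases that oppose the signal. In injured nerve, antibody and Fc receptors on macrophages are known to take part in the clearance of myelin.

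Relative to Unop nerves, 9 of the 10 transcripts rose in PEG PNAs, and the exception, the inhibitory receptor Fcgr2b, was lower (-0.62 on the log2 scale), a call that was lost without Unop 1 (-0.35, adjusted p = 0.136). Between the PNAs, 5 of the 10 were lower in PEG than in NC PNAs: Nfam1, Cd300lf, Fcgr1a, Lyn and Fcgr2b, the last of which lost its call when single libraries were left out. Cd300a alone among the 10 was higher in PEG PNAs, with a mean 1.69 times that of NC PNAs. Fcer1g, Tyrobp, Syk and Fcgr2a did not pass the test between the PNAs. Values are normalized counts (reads divided by the size factor of the library), means are given ± SD, and log2 fold changes ± SE come from limma over all tested genes with Benjamini-Hochberg adjustment. A call is an adjusted p under 0.05. Since no exon lengths were used, levels were compared between groups and not between genes.

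**Figure D1:**
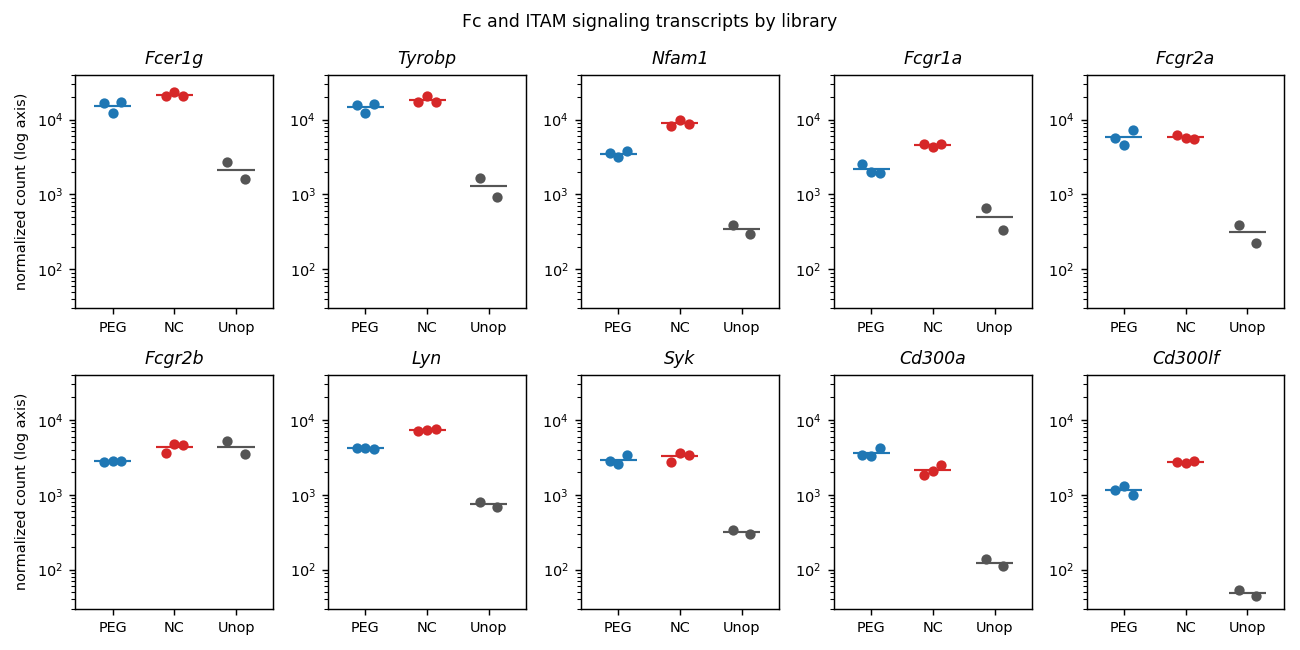
Normalized counts (vertical axis, log scale) of each of the 10 transcripts in the 3 PEG PNAs, 3 NC PNAs and 2 Unop nerves, with points for libraries and bars for group means. Cd300a is the panel in which the PEG PNAs lie above the NC PNAs, and Fcgr2b is the panel in which the Unop nerves are as high as the NC PNAs.

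The libraries held between 32472925 and 39959620 reads on genes. The Schwann cell marker list was present in every library, with a summed level of 2770000 to 3260000 normalized counts in Unop nerves, 65800 to 74400 in PEG PNAs and 22900 to 80300 in NC PNAs, where 2 of its 6 genes were lower than in PEG PNAs. Of all tested genes, 13.9% were lower and 15.0% higher in PEG than in NC PNAs, and the counts of each marker list between the PNAs stand beside these shares. In bulk tissue, fewer cells of a type and less RNA per cell cannot be told apart, and this holds for each transcript below. A list of macrophage markers had 9 of its 14 tested genes lower and 0 higher in PEG than in NC PNAs by limma (0 higher also at an unadjusted p under 0.05, by edgeR and by DESeq2), and its summed level was 315000 to 408000 in PEG PNAs, 671000 to 904000 in NC PNAs and 39600 to 64600 for Unop nerves. In the PNAs most of the macrophage sum was Lyz2 (646890 of 904400 in NC 2), whose log2 difference of -1.53 was the lowest of the list. The NK cell list had all 6 genes and the T cell list all 7 genes lower in PEG than in NC PNAs. The NK cell sums were 1050 to 2520, 9360 to 14600 and 194 to 226 in PEG PNAs, NC PNAs and Unop nerves. The T cell sums were 7060 to 10400, 24400 to 41700 and 1730 to 2050 in the same order. In PEG PNAs and Unop nerves most of the T cell sum was Cd4 (5667.2 of 7058.3 in PEG 2). Between the PNAs, the log2 difference was -0.734 for Cd4 and from -3.84 (Cd3d) to -2.35 (Cd8a) for the others of that list. For B and plasma cells, 6 of 6 tested markers were lower in PEG than in NC PNAs, with sums of 108.4 to 210, 579 to 1100 and 53.8 to 55.8 in the same order of groups. Of the dendritic cell markers, 2 of 5 were lower, with sums of 3200 to 5920, 6030 to 10200 and 931 to 1100. Of the neutrophil markers, 3 of 7 tested were lower, and 0 were higher by limma, edgeR or DESeq2 but 1 was at an unadjusted p under 0.05 (Mmp8, log2 difference 1.86, adjusted p = 0.0546), with sums of 1930 to 3220, 2250 to 2380 and 410 to 547, and Elane of that list was at 0 in both Unop nerves. Most of the neutrophil sum was Mmp8 in PEG PNAs (2126.3 of 3224.63 in PEG 1), Csf3r in NC PNAs (1828.8 of 2252.67 in NC 2) and Mpo in Unop nerves (390.65 of 547.335 in Unop 1). Of the platelet markers, 2 of 3 tested were lower and 1 higher, with sums of 4140 to 5990, 2380 to 3380 and 956 to 1500. Most of the platelet sum was Pf4 (4045.2 of 4142.43 in PEG 2). Its log2 difference between the PNAs was 1.16, beside -2.65 for Itga2b and -1.01 for Gp9. The part of any of these cells in the results below was not tested.

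The adaptors were considered first. Fcer1g (ENSRNOG00000024159) is the common gamma chain that carries the ITAM for activating Fc receptors. It was measured at 16558.8, 12325.4 and 17012 normalized counts in PEG PNAs, 20534.4, 23079.7 and 20496.8 in NC PNAs, and 2673.36 and 1599.7 in Unop nerves. Every PEG PNA was below every NC PNA and far above both Unop nerves. The difference between PEG PNAs (15299 ± 2585, n = 3) and NC PNAs (21370 ± 1480, n = 3) was -0.49 ± 0.20 on the log2 scale and was not called (adjusted p = 0.0961, limma). It passed when the 2 PNA groups were fitted alone (adjusted p = 0.0428) and when either Unop nerve was left out (adjusted p = 0.036 without Unop 1 and 0.0368 without Unop 2). Against Unop nerves, Fcer1g rose in PEG PNAs by 2.87 ± 0.22 (adjusted p = 1.67e-05) and was 3.37 ± 0.22 higher in NC PNAs.

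Tyrobp (ENSRNOG00000020845), also known as DAP12, is the ITAM adaptor of Trem2 and of several lectin-like receptors. It was measured at 15831.2, 12421.7 and 16270.9 in PEG PNAs, 17089.5, 20977.6 and 17385.8 in NC PNAs, and 1670.98 and 935.553 in Unop nerves. The PNA groups did not overlap, but the gap between the nearest libraries was small beside the spread within each group. The log2 difference between PEG and NC PNAs was -0.32 ± 0.21 (adjusted p = 0.287), so no difference was called. Tyrobp rose by 3.56 ± 0.24 in PEG PNAs relative to Unop nerves (adjusted p = 8.02e-06), and the difference of NC PNAs from Unop nerves was 3.88 ± 0.24.

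Nfam1 (ENSRNOG00000022975) is a membrane receptor with an ITAM in its own tail that can switch on NFAT. It was measured at 3549.04, 3164.55 and 3845.16 in PEG PNAs, 8261.47, 9871.32 and 8663.5 in NC PNAs, and 387.428 and 297.676 in Unop nerves. The 3 groups were well apart, with PEG PNAs between the others. Nfam1 was 2.54 times as abundant in NC PNAs (8932.1 ± 837.9) as in PEG PNAs (3519.6 ± 341.3), a log2 fold change of -1.34 ± 0.13 in PEG PNAs (adjusted p = 0.000589), the lowest of the 10. It rose by 3.37 ± 0.14 in PEG PNAs relative to Unop nerves (adjusted p = 1.37e-06). The description for NC PNAs against Unop nerves was 4.71 ± 0.14, or 26.1 times. Nfam1 was selected on that comparison, which shares libraries with the others, so its p-values here are not free of the choice.

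The Fc gamma receptors differed among themselves. Fcgr1a (ENSRNOG00000021199), the high-affinity receptor for IgG, was measured at 2586, 1999.7 and 1919.3 in PEG PNAs, 4704.88, 4284.81 and 4653.46 in NC PNAs, and 668.608 and 337.7 in Unop nerves. Each PEG PNA lay below each NC PNA. Fcgr1a was lower in PEG PNAs (2168.3 ± 363.9) than in NC PNAs (4547.7 ± 229.1) by a log2 fold change of -1.08 ± 0.23 (adjusted p = 0.0103). It was higher than in Unop nerves by 2.17 ± 0.26 (adjusted p = 0.000166), and NC PNAs were 3.25 ± 0.26 above Unop nerves.

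Fcgr2a (ENSRNOG00000046663), a low-affinity activating receptor, was measured at 5661.4, 4631.37 and 7202.53 in PEG PNAs, 6137.35, 5730.66 and 5476.3 in NC PNAs, and 393.867 and 227.635 in Unop nerves. The PNA groups overlapped, and the PEG PNAs were the more variable (5831.8 ± 1294 against 5781.4 ± 333.4). The log2 difference was -0.01 ± 0.22 (adjusted p = 0.98), and its sign changed under several settings. Both PNA groups were far above Unop nerves, by 4.26 ± 0.24 for PEG PNAs (adjusted p = 4e-06) and by 4.27 ± 0.24 for NC PNAs.

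Fcgr2b (ENSRNOG00000046452), the inhibitory ITIM receptor for IgG, was measured at 2735.23, 2834.54 and 2805.78 in PEG PNAs, 3567.31, 4822.7 and 4688.19 in NC PNAs, and 5185.73 and 3550.85 in Unop nerves. It was the one transcript of the 10 for which Unop nerves were not the lowest group. NC PNAs and Unop nerves overlapped (4359.4 ± 689.3 and 4368.3 ± 1156), with a log2 difference of 0.01 ± 0.18 that changed sign under several settings, while all 3 PEG PNAs (2791.9 ± 51.1) were below both. The difference of PEG from NC PNAs was -0.63 ± 0.16 (adjusted p = 0.0207), but the call was lost without PEG 1 (-0.62, adjusted p = 0.0601), PEG 2 (-0.64, 0.0618), PEG 3 (-0.63, 0.0591), NC 2 (-0.55, 0.0583) or NC 3 (-0.57, 0.0648). The difference from Unop nerves was -0.62 ± 0.18 (adjusted p = 0.0165) and became -0.35 (adjusted p = 0.136) without Unop 1. Mast cell markers were mostly higher in Unop nerves than in either PNA group. Of the 9, 7 were lower and 1 higher in PEG PNAs, and 7 were lower and 2 higher in NC PNAs. Of all genes, 28.6% were lower in PEG PNAs and 32.3% in NC PNAs. The summed levels of the mast cell markers were 5350 to 9100 in Unop nerves, 1250 to 1760 in PEG PNAs and 1310 to 1720 in NC PNAs. Between the PNAs, 0 of the 9 differed by limma, by edgeR or by DESeq2, and 0 had an unadjusted p under 0.05. Schwann cell markers were lower than in Unop nerves as well, 6 of 6 in PEG PNAs and 6 of 6 in NC PNAs. The part of mast cells or Schwann cells in the level of Fcgr2b was not tested.

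The balance among the 3 receptors was followed within libraries, as a description with no test. The log2 ratio of Fcgr2a to Fcgr2b was 1.05, 0.71 and 1.36 in PEG PNAs, 0.78, 0.25 and 0.22 in NC PNAs, and -3.72 and -3.96 in Unop nerves. The mean ratio was thus 4.88 higher in PEG PNAs and 4.25 higher in NC PNAs than in Unop nerves, and the PNA groups overlapped. The ratio of Fcgr1a to Fcgr2b was -0.38 ± 0.26 in PEG PNAs, 0.07 ± 0.29 in NC PNAs and -3.17 ± 0.31 for Unop nerves. The 2 activating receptors also separated from each other, since the ratio of Fcgr1a to Fcgr2a was -1.42 ± 0.43, -0.35 ± 0.10 and 0.66 ± 0.14 in the same order of groups. The Fc gamma receptor genes lie close together and are much alike in sequence, and in the RefSeq table Fcgr2a has also been called Fcgr3 and Fcgr3a, so reads may have been split between copies and these values are uncertain to that extent.

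Next came the kinases. Lyn (ENSRNOG00000008180) is the Src-family kinase that phosphorylates ITAMs and ITIMs in myeloid cells. It was measured at 4250.69, 4233.11 and 4145.35 in PEG PNAs, 7207.01, 7418.55 and 7503.03 in NC PNAs, and 810.271 and 679.151 in Unop nerves. The libraries of each PNA group were very close, the Unop nerves were less so, and the 3 groups were clearly apart. Lyn was lower in PEG PNAs (4209.7 ± 56.43) than in NC PNAs (7376.2 ± 152.5), a log2 change of -0.81 ± 0.08 (adjusted p = 0.000676). It was 2.50 ± 0.09 higher in PEG PNAs than in Unop nerves (adjusted p = 1.17e-06), and the description for NC PNAs against Unop nerves was 3.31 ± 0.09. As with Nfam1, Lyn was selected on the latter comparison, so its p-values here are not free of the choice.

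Syk (ENSRNOG00000012160), the kinase that binds phosphorylated ITAMs, was measured at 2803.82, 2598.02 and 3417.4 in PEG PNAs, 2734.46, 3641.5 and 3359.87 in NC PNAs, and 338.06 and 297.676 in Unop nerves. The PNA groups overlapped, and their log2 difference was -0.14 ± 0.14 (adjusted p = 0.481). Syk rose by 3.20 ± 0.16 in PEG PNAs relative to Unop nerves (adjusted p = 2.11e-06), close to the 3.34 ± 0.16 of NC PNAs. The log2 ratio of Lyn to Syk was therefore 0.53 ± 0.22 in PEG PNAs, 1.19 ± 0.19 in NC PNAs and 1.22 ± 0.05 for Unop nerves, with each PEG PNA below each of the other libraries.

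The 2 CD300 receptors moved in opposite directions between the PNAs. Cd300a (ENSRNOG00000057058) is an ITIM receptor for phosphatidylserine and phosphatidylethanolamine on dying cells. It was measured at 3385.91, 3342.18 and 4154.73 in PEG PNAs, 1820.29, 2089.16 and 2518.7 in NC PNAs, and 137.37 and 111.316 in Unop nerves. PEG PNAs were the highest group, with no overlap. Cd300a was higher in PEG PNAs (3627.6 ± 457) than in NC PNAs (2142.7 ± 352.3) by 0.76 ± 0.15 (adjusted p = 0.00732), and higher than in Unop nerves by 4.86 ± 0.17 (adjusted p = 9.16e-07), or 29.2 times. NC PNAs were 4.09 ± 0.17 above Unop nerves.

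Cd300lf (ENSRNOG00000021424) is a lipid-binding CD300 receptor with both inhibitory and activating tail motifs. It was measured at 1169.73, 1304.15 and 987.792 in PEG PNAs, 2701.4, 2679.76 and 2787.83 in NC PNAs, and 53.6603 and 45.0266 in Unop nerves. NC PNAs were the highest group and were tightly grouped. Cd300lf was lower in PEG PNAs (1153.9 ± 158.8) than in NC PNAs (2723 ± 57.18) by a log2 fold change of -1.25 ± 0.12 (adjusted p = 0.000631). It was 4.52 ± 0.14 above Unop nerves in PEG PNAs (adjusted p = 9.14e-07), and in NC PNAs the description was 5.76 ± 0.14, or 55.2 times. The lowest count behind any of the 10 was 36 reads, for Cd300lf in an Unop nerve.

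Within libraries, the log2 ratio of Cd300a to Cd300lf was 1.53, 1.36 and 2.07 in PEG PNAs, -0.57, -0.36 and -0.15 in NC PNAs, and 1.34 and 1.29 in Unop nerves. Cd300a thus gave more reads than Cd300lf in PEG PNAs and Unop nerves and fewer in NC PNAs, a comparison of this ratio across groups and not of the levels of the genes. The CD300 genes form a cluster on chromosome 10 with similar members, so reads may have been shared among them.

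**Figure D2:**
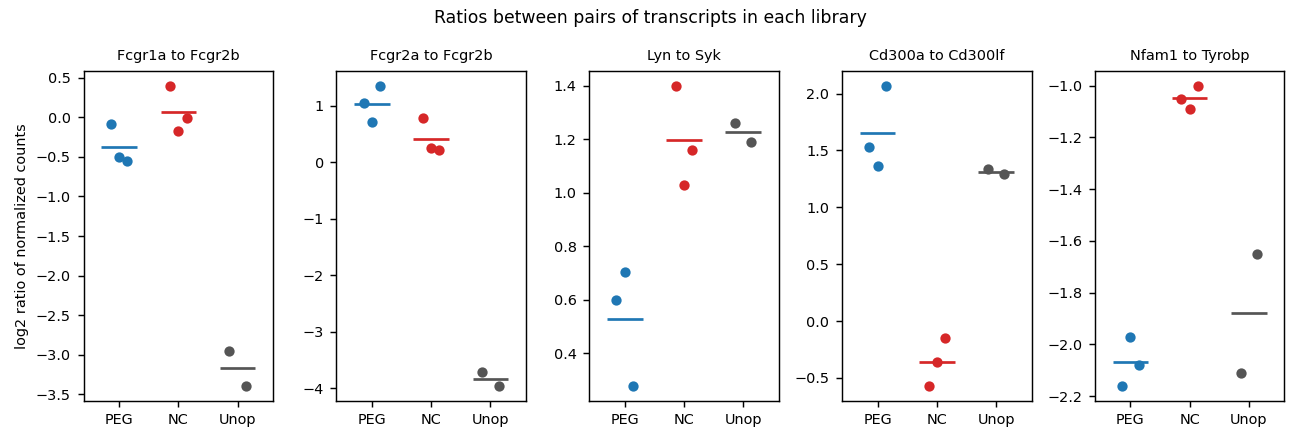
Log2 ratio of normalized counts within each library (vertical axis), with points for the libraries of each group and bars for group means. The pairs shown are Fcgr1a to Fcgr2b, Fcgr2a to Fcgr2b, Lyn to Syk, Cd300a to Cd300lf and Nfam1 to Tyrobp. The ratio of Cd300a to Cd300lf is below 0 in all NC PNAs and above 0 elsewhere, and the ratios of Fcgr1a and Fcgr2a to Fcgr2b are lowest in Unop nerves.

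The ratio of Tyrobp to Fcer1g was -0.04 ± 0.04 in PEG PNAs, -0.21 ± 0.07 in NC PNAs and -0.73 ± 0.07 for Unop nerves. The ratio of Nfam1 to Tyrobp was -2.07 ± 0.09, -1.05 ± 0.04 and -1.88 ± 0.32 in the same order. For Nfam1, NC PNAs stood alone, and PEG PNAs and Unop nerves overlapped.

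Promoter sequences from RefSeq (build GRCr8, 250 bases before to 50 after a gene's start) were at hand for 5 of the 10 genes. The 2 CD300 promoters are shown because these genes moved in opposite directions between the PNAs. Capitals mark GAGGAA or, for the other strand, TTCCTC, a sequence found in some sites for the myeloid factor PU.1.
Cd300a: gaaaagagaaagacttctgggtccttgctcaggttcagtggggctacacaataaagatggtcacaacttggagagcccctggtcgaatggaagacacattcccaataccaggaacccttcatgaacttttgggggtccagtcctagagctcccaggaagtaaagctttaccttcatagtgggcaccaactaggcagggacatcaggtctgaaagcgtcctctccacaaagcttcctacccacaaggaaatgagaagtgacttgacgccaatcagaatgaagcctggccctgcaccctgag
Cd300lf: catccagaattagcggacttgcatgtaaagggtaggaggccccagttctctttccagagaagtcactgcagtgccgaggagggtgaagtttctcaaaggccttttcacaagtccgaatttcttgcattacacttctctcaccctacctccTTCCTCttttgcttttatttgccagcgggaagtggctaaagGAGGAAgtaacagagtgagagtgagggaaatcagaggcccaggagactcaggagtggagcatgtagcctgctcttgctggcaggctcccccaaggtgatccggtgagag
The Cd300a window lies at chr10:100428576-100428875 on the + strand, and the Cd300lf window at chr10:100874973-100875272 on the - strand. Cd300lf held 1 match on the printed strand and 1 on the other, and Cd300a held 0. Other forms, such as the shorter GGAA, were not marked, and GGAA does occur in the Cd300a window. Of 33465 rat promoter windows of this length, 27.6% held GAGGAA on either strand. Syk held 1 match, the windows of Fcgr2a held 0 and 2, and those of Nfam1 held 0 to 3. A second motif, TTCNNNGAA of the STAT factors, was in 8.87% of all windows and in 0 of the windows of these 5 genes. A match describes the letters of a window and is not a binding site.

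The 10 transcripts were then compared with the rest of the transcriptome. Between PEG and NC PNAs, 5 of 10 were lower and 1 of 10 higher, where 13.9% of all tested genes were lower and 15.0% higher. A log2 fold change below -1 was reached by 3 of 10 (Nfam1, Cd300lf and Fcgr1a) against 7.14% of all genes. In 7 of 10, every PEG PNA was below every NC PNA, against 23.3% of all genes, and in 1 of 10 every PEG PNA was above, against 25.6%. The median log2 fold change of the 10 was -0.562, beside 0.00174 for all tested genes. Against Unop nerves, 9 of 10 rose in PEG PNAs and 1 (Fcgr2b) fell, where 29.1% of all genes rose and 28.6% fell, and the median was 3.28 beside 0.0132. In NC PNAs against Unop nerves the median was 3.62 beside 0.0216, but nothing is read from it because this comparison was used in choosing the genes. The 3 comparisons share libraries and the genes were chosen with results known, so these counts describe the set and are not independent of one another.

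**Figure D3:**
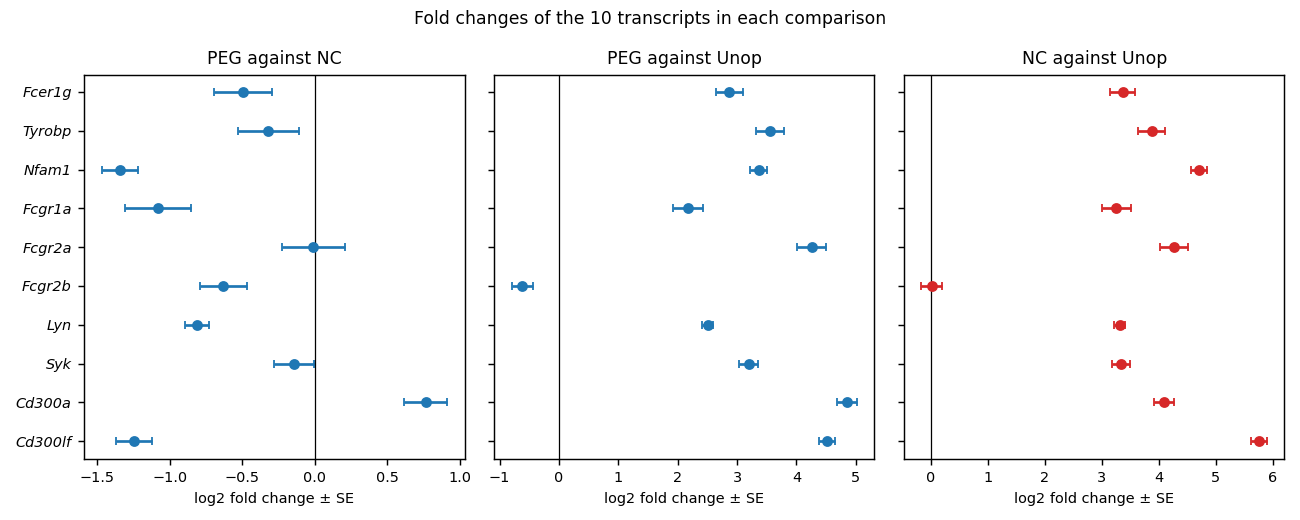
Log2 fold change (horizontal axis) of the 10 transcripts for each pair of groups, with error bars for the SE of the limma fit. The differences of both PNA groups from Unop nerves are large for all but Fcgr2b, and between the PNAs the values run from -1.34 for Nfam1 to 0.76 for Cd300a.

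Since macrophage markers were also lower in PEG PNAs, each transcript was set against the mean log2 level of the 14 macrophage markers in its own library, as a description. The log2 difference of that mean between PEG and NC PNAs was -0.677. A transcript with the same level in both PNA groups is therefore raised in PEG PNAs on this scale by the size of that difference. Relative to the mean of the markers, Cd300a (1.44), Fcgr2a (0.67), Syk (0.54) and Tyrobp (0.36) were above NC PNAs in every PEG PNA. Of these, Fcgr2a, Syk and Tyrobp were not called between the PNAs and did not exceed what the scale adds. The share of all genes that lie apart on this scale was not computed. Nfam1 (-0.67), Cd300lf (-0.57) and Fcgr1a (-0.40) were below NC PNAs in every PEG PNA. Fcer1g (0.18), Lyn (-0.13) and Fcgr2b (0.05) overlapped between the PNAs on this scale. With the median of the markers, whose difference was -0.377, the values were 1.14 for Cd300a, 0.37 for Fcgr2a, 0.24 for Syk, 0.06 for Tyrobp, -0.97 for Nfam1, -0.87 for Cd300lf, -0.70 for Fcgr1a and -0.43 for Lyn, and those of Fcer1g (-0.12) and Fcgr2b (-0.25) changed sign. Between NC PNAs and Unop nerves, Fcgr2b fell from 0.97 to -1.97 relative to the mean of the markers, while the other 9 were higher in NC PNAs on this scale by 0.30 (Fcgr1a) to 2.81 (Cd300lf).

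**Figure D4:**
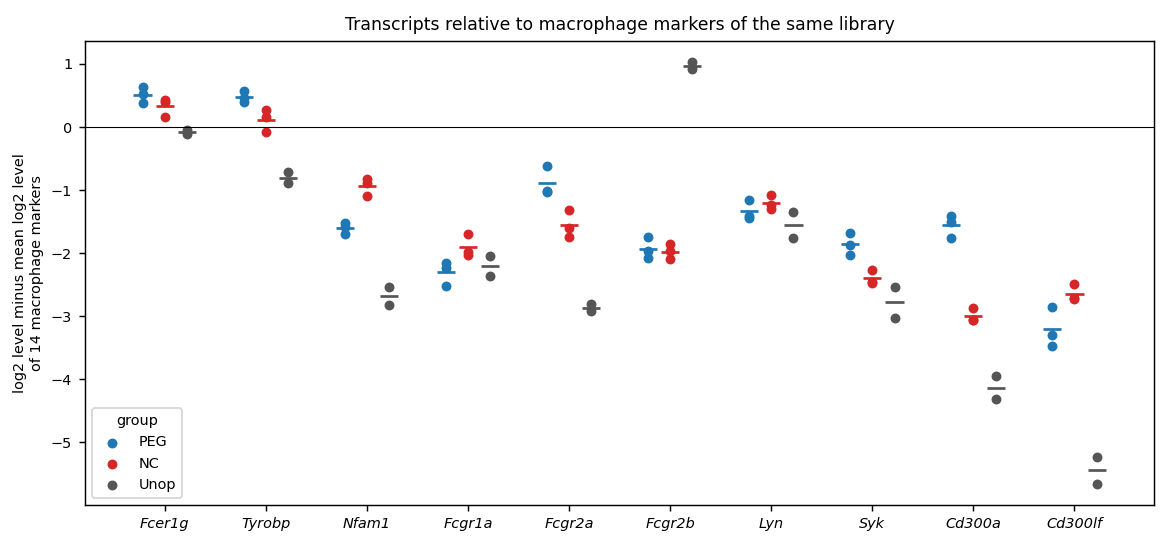
Log2 level of each transcript minus the mean log2 level of 14 macrophage markers in the same library (vertical axis), with points for libraries and bars for group means. Groups are to be compared within a transcript: Cd300a is higher and Nfam1 and Cd300lf are lower in PEG than in NC PNAs, and Fcgr2b is far higher in Unop nerves than in either PNA group.

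The wider pathway was described by 5 lists of Fc receptor and ITAM genes that leave out the 10 transcripts. Of their genes, 105 were tested, and 3 more (Fcer2, Fcamr and Gp6) were too low. In PEG PNAs, 59 of 105 (56.2%) were lower than in NC PNAs, 13 (12.4%) were higher and 33 were not called, with a median of -0.67. Over all tested genes the shares were 13.9% lower and 15.0% higher, so the higher share of the lists was near that of all genes. The higher count was 8 without PEG 2, 6 without PEG 3 and 8 without NC 2. Relative to Unop nerves, 88 of 105 (83.8%) rose in PEG PNAs and 6 fell, where 29.1% of all genes rose and 28.6% fell, and the median was 2.47. In NC PNAs 91 were higher and 7 lower, where 32.2% and 32.3% of all genes were, and the median was 3.34. Some of the listed genes that were lower, such as Zap70, Lck and Lat, are those of T and NK cells, whose markers were lower as well. Their part was not tested.

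Among 9 other Fc receptors, 1 (11.1%) was lower and 1 (11.1%) higher in PEG than in NC PNAs. Both shares were near those of all genes (13.9% and 15.0%). Fcgr3a, an activating IgG receptor, was measured at 1067.8, 538.49 and 539.39 in PEG PNAs, 4434.1, 5847.9 and 7149 in NC PNAs, and 74.051 and 40.024 in Unop nerves. Its log2 fold change between the PNAs was -3.07 ± 0.33 (adjusted p = 0.000832), beside -1.08 for Fcgr1a. In the RefSeq table it lies between Fcgr2b and Fcgr2a and has also been called Fcgr4. Fcgrt, the neonatal Fc receptor that recycles IgG, was higher by 0.62 ± 0.15 (adjusted p = 0.0191), though not called without PEG 1 (0.52, adjusted p = 0.0644), PEG 2 (0.60, 0.065) or NC 2 (0.55, 0.0556).

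Another list held 19 receptors grouped as partners of Tyrobp or Fcer1g, and whether each of them pairs with these adaptors was not checked. Of the 19, 6 (31.6%) were lower and 4 (21.1%) higher in PEG than in NC PNAs, beside 13.9% and 15.0% of all genes. Their median was -0.409. The lower ones with the smallest adjusted p were Klrk1 (-3.02 ± 0.22, adjusted p = 0.000343), a receptor of NK and T cells, the Trem family receptor Trem3 (-2.66 ± 0.33, 0.00133) and the immunoglobulin family receptor Igsf6 (-1.28 ± 0.19, 0.00267). Higher ones were the lectin Clec5a (1.35 ± 0.21, adjusted p = 0.00267), the CD300 family member Cd300le (0.89 ± 0.18, 0.00823) and Siglec15 (1.76 ± 0.37, 0.00957), a sialic acid receptor known from osteoclasts. Siglec15 was low, at 50.052, 66.376 and 80.674 in PEG PNAs and 15.191, 24.743 and 16.399 in NC PNAs.

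Of 15 Src-family kinases and their regulators, 11 (73.3%) were lower and 1 (6.67%) higher, beside 13.9% and 15.0% of all genes. Their median was -1.15. Ptprc, the CD45 phosphatase that activates Src-family kinases, fell from 25830 ± 5760 in NC PNAs to 9141 ± 1160 in PEG PNAs (-1.48 ± 0.17, adjusted p = 0.00114). The related phosphatase Ptprj (-0.87 ± 0.11, adjusted p = 0.00125) and the myeloid kinase Fgr (-1.15 ± 0.15, 0.00165) were also lower, as Lyn was. Yes1, a widely expressed kinase of the family, was higher (0.70 ± 0.12, adjusted p = 0.00431).

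Of 35 adaptors and effectors downstream of Syk, 27 (77.1%) were lower and 4 (11.4%) higher, beside 13.9% and 15.0% of all genes. Their median was -0.723, while Syk itself was not called. Prkcb, a protein kinase C (-1.48 ± 0.16, adjusted p = 0.000819), the adaptor Fyb1 (-1.59 ± 0.18, 0.001) and the phospholipase Plcg2 (-1.01 ± 0.13, 0.00148) were lower. Tec (0.40 ± 0.10, adjusted p = 0.0176), Gab2 (0.56 ± 0.16, 0.0325) and Blnk (0.52 ± 0.15, 0.0343), a kinase and a pair of adaptors, were higher. These calls were not firm: Tec lost its call without PEG 2 (0.37, adjusted p = 0.069) or PEG 3 (0.34, 0.0699). Gab2 lost it without any of the 3 PEG PNAs (0.53 to 0.60, adjusted p = 0.075 to 0.0987), NC 1 (0.39, 0.056) or NC 2 (0.57, 0.0658). Blnk lost it without PEG 1 (0.55, adjusted p = 0.0712), PEG 3 (0.39, 0.113) or any of the 3 NC PNAs (0.47 to 0.55, adjusted p = 0.0576 to 0.0819).

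Of 27 ITIM receptors and inhibitory enzymes, 14 (51.9%) were lower and 3 (11.1%) higher, beside 13.9% and 15.0% of all genes. Their median was -0.628. Ptpn6, the SHP-1 phosphatase that ITIMs recruit, was lower (-1.25 ± 0.12, adjusted p = 0.000623), as were the ITIM lectin Clec12a (-1.34 ± 0.18, 0.00164) and the adaptor Dok1 (-1.04 ± 0.15, 0.00215). Siglec10, an ITIM receptor for sialic acids, was higher (1.30 ± 0.29, adjusted p = 0.0121), as Cd300a was. Ubash3b, a phosphatase that acts on Syk (0.41 ± 0.09, adjusted p = 0.0109), and Ptpn11, the SHP-2 phosphatase (0.29 ± 0.07, 0.0186), were higher by smaller amounts. Ubash3b was not called without PEG 3 (0.36, adjusted p = 0.0512), and Ptpn11 was not called without PEG 2 (0.28, adjusted p = 0.0714), PEG 3 (0.28, 0.0744) or NC 2 (0.28, 0.0537).

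**Figure D5:**
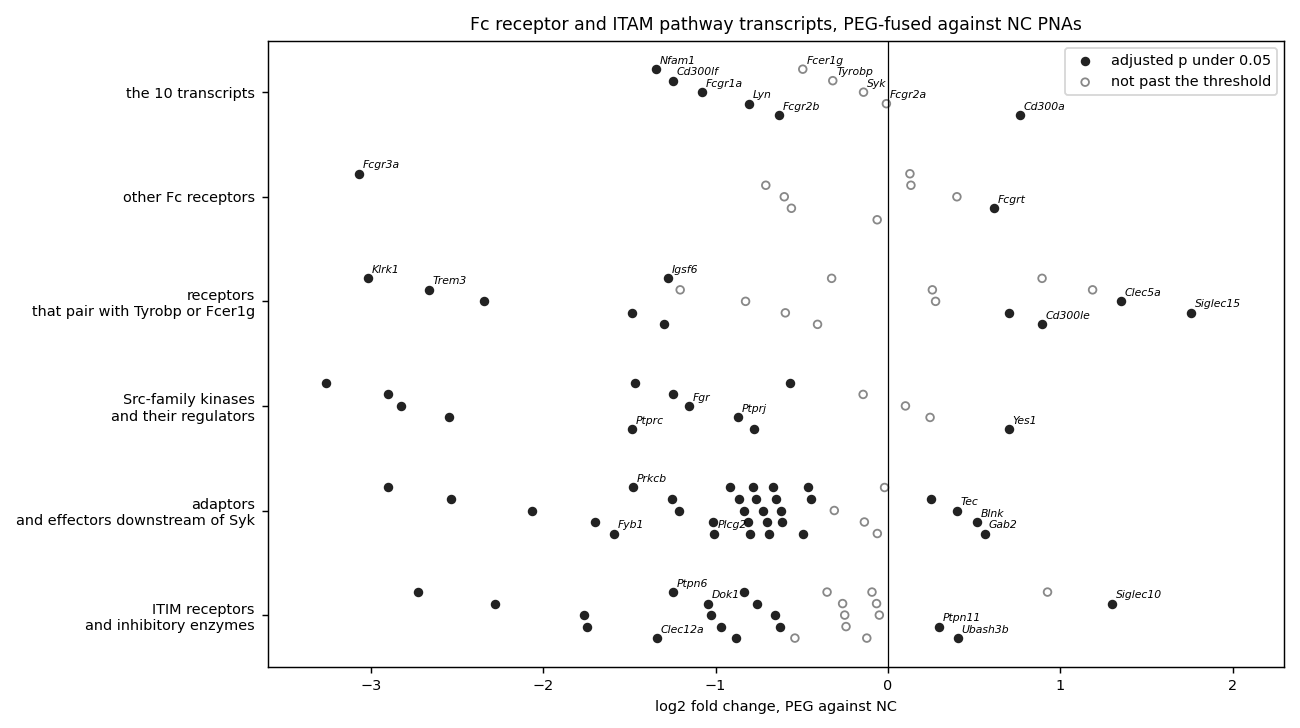
Log2 fold change of PEG against NC PNAs (horizontal axis) for the 10 transcripts and 105 other Fc receptor and ITAM pathway genes by list, with filled points for an adjusted p under 0.05. Most filled points of the Src-family and Syk lists lie left of 0, and those of the Tyrobp or Fcer1g receptor list lie on both sides.

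Finally, the centred log2 profile of each transcript over the 8 libraries was compared with the mean profile of the 10. Fcer1g was nearest to it (root mean square difference 0.138), then Syk (0.212), Tyrobp (0.221) and Lyn (0.239). Cd300a (0.758), Cd300lf (0.858) and Fcgr2b (1.58) were farthest. Outside the 10, the 5 nearest genes were Ctss (0.139), a lysosomal protease of macrophages, the transporter Slc15a3 (0.139), the leukocyte Rac regulator Arhgap25 (0.142), the mitotic spindle protein Tacc3 (0.142) and the integrin adaptor Fermt3 (0.146). The mean profile ran from -2.76 in Unop 2 to 1.16 in NC 2, so that likeness to it was mostly likeness in the difference of PNAs from Unop nerves.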

How the data were processed

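Bulk poly-A RNA-seq of 8 rat sciatic nerve libraries (3 PEG, 3 NC, 2 Unop, grouped by their labels) was used. Per the study's methods, the authors aligned 75 bp paired-end reads to Rnor_6.0 with TopHat2, counted reads per gene with HTSeq-count and divided them by DESeq2 size factors, with versions not given in the sources used here. The deposited signal values are these normalized counts, and the authors' comparison columns (fold changes and p-values) were not used. Divided by what 1 read is worth in their library, 100% of values were whole reads within 0.001.

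Genes reaching 10 normalized counts in 2 or more libraries were tested on log2(normalized count + 1) with limma 3.58.1 trend (R 4.3.3), all 8 libraries in 1 fit, Benjamini-Hochberg adjusted over all 16478 genes. On this scale fold changes of low genes are understated. The fit was first run on simulated counts with few changed genes, large changes and the same dispersion for every gene. These settings are simpler than the data, so that run only checked that the fit worked. Alternatives were edgeR 4.0.16 and DESeq2 1.42.0 on recovered reads, other scaling, pseudocount, filter, a replicate block and leaving out each library. The genes and lists were chosen with earlier results of these data known. All 10 genes are named, and from each list up to 3 genes lower and 3 higher with the smallest adjusted p in PEG against NC. Each PNA library was labelled as a separate sample. The p-values rest on the spread within every group, Unop nerves included, drawn toward the spread of other genes. At 32472925 to 39959620 reads a library, the counting error of a library's value (Poisson) was at or over the spread between libraries in 3 of the 30 gene and group pairs (Lyn and Fcgr2b in PEG, Cd300lf in Unop).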

Additional observations from a re-analysis of the deposited data

How the results depend on the processing

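Over the 17 alternatives, the fold changes of the 10 transcripts in PEG against NC and PEG against Unop kept their direction and their side of the threshold in 325 of 340 cases, 6 lost a call, 3 gained one and 6 changed sign, and in NC against Unop 5 of 170 changed sign; the lost and gained calls are those given above for Fcgr2b and Fcer1g. The sign changes were all in differences within 0.01 of 0 with all libraries in the fit. For Fcgr2a, PEG against NC, the values were 0.025 by edgeR, 0.013 by DESeq2, 0.0073 with TMM scaling, and 0.00014, 0.14 and 0.03 without PEG 1, PEG 2 and NC 1, in a range of -0.174 to 0.145 over single libraries left out. For Fcgr2b, NC against Unop, they were -0.0030 by DESeq2, -0.0214 with the replicate block, and -0.07, -0.05 and -0.26 without NC 2, NC 3 and Unop 2, in a range of -0.263 to 0.283. Relative to the median of the macrophage markers, a setting chosen after seeing the data, Fcer1g was -0.118 and Fcgr2b -0.253. With a log2 fold change past 1 also required, 3 of the 10 transcripts were lower and 0 higher in PEG against NC, and 33 pathway genes were lower and 3 higher. Leaving out 1 library gave 4 to 6 of the 10 lower, 41 to 59 pathway genes lower and 6 to 13 higher. Of the 24 pathway genes named, 18 were called in every setting (run after seeing the data), and the other 6 lost their calls as given above. Over all genes, edgeR called 2553 higher and 2424 lower in PEG against NC, and limma calls fell to 1359 higher and 1390 lower without PEG 2 from 2477 and 2286. Same-numbered PEG and NC libraries correlated at 0.108, 0.109 and -0.0502, PEG 3 correlated better with NC 2 (0.0387) than with NC 3, and the labels give the numbers no meaning, so they were not taken as pairs. Same-numbered pairs with Unop libraries correlated at 0.136 to 0.157, so 6 of 7 same-numbered pairs were over 0.1, and 0 of 14 other pairs were (at most 0.0976). The deviations of the 2 Unop libraries from their mean mirror each other. A library's pairs with Unop 1 and Unop 2 (0.154 and -0.154 for PEG 1) are therefore not separate outcomes, and these counts overstate the contrast. With the replicate block, 5 of the 10 were lower and 1 higher, 52 pathway genes were lower and 12 higher, and 2110 genes were higher and 2055 lower. TMM scaling moved the median of all genes by at most 0.0311.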
